A study of Mus musculus with 18 samples.

Results

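Cpt1a and 9 other enzymes of mitochondrial fatty acid oxidation were followed over all 18 arrays of the series, as 10 of the 12393 mouse genes that had a probe set assigned to a single gene. The members are Cpt1a and Cpt2, the dehydrogenases Acadvl, Acadl and Acadm, the trifunctional protein genes Hadha and Hadhb, the isomerase Eci1, and the electron carriers Etfb and Etfdh. Where a gene had several such probe sets, the one with the largest average signal across the series stood for it. The values are log2 GCRMA signals, and all 10 genes met the filter of a signal of at least log2 4 on at least 3 arrays that 6873 genes met.

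Fatty acids reach the mitochondrial matrix as carnitine esters. Cpt1a makes these esters at the outer membrane and is the step that malonyl-CoA inhibits, and Cpt2 turns them back into acyl-CoA inside. Acyl-CoA dehydrogenases then start each round of shortening, the trifunctional protein carries out the following steps on long chains, Eci1 moves double bonds of unsaturated chains, and the electrons pass through Etfb and Etfdh to the respiratory chain. Resting T cells are known to draw on this pathway, and activated T cells turn towards glucose and glutamine. The nuclear receptor ERRα, encoded by Esrra, is known to bind genes of mitochondrial metabolism, fatty acid oxidation genes among them.

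CD4+ T cells came from mice aged 6 to 8 weeks and were isolated by removing other cells with magnetic beads. The 6 groups of 3 arrays were WT cells with XCT790 at 20 µM, WT cells with compound A at 20 µM, stimulated ERRα knockout (ERRa-/-) cells, stimulated WT cells, resting knockout cells and resting WT cells. Stimulation lasted 12 h with anti-CD3 and anti-CD28 antibodies, 10 µg. Resting cells were harvested directly after isolation, so activation and the 12 h in culture cannot be told apart. The submitters describe XCT790 and compound A as ERRα inhibitors present during stimulation, but one label field calls these arrays unstimulated, and so they were compared with stimulated and with resting WT cells. The submitters describe the 3 arrays of a group as independent biological replicates.

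The arrays carried the T cell markers that were measured, 7 of 7 above log2 4 on every array. Their levels moved with the groups: on activation 5 of the 7 fell and 1 rose in knockout cells and 5 fell in WT cells (median log2 differences -0.75 and -0.81), and with XCT790 against stimulated WT cells 4 fell and 1 rose (median -0.76). Of 5 B cell markers tested, 4 fell on activation in each genotype (medians -1.37 in knockout and -1.61 in WT cells), and 2 were lower in knockout than in WT cells at rest. The part of these shifts in the results was not tested. The summed linear signal of 8 macrophage markers was 40.7 to 84.2 on the stimulated knockout arrays and 43.6 to 44.4 on the stimulated WT arrays, against 5882 to 17772 on the resting knockout arrays and 4142 to 8162 on the resting WT arrays; after stimulation all 8, Csf1r and C1qa among them, were under log2 4 in WT and 7 of 8 in the knockout. Every comparison with resting cells runs along with this loss of macrophage RNA, and its part in the results was not tested. The summed signal of 9 neutrophil markers was 2822 to 13523 on the resting knockout arrays and 396 to 1382 on the resting WT arrays. That of 8 erythroid markers was 3172 to 10953 on the resting knockout arrays and 147 to 1244 on the resting WT arrays. Comparisons with resting knockout cells, and the difference between the responses, run along with this excess. Its part in the results was not tested. The first resting knockout array and the first stimulated knockout array stood apart from their group: they correlated with their partners at 0.990 to 0.991 and at 0.993 to 0.994, where the other 2 arrays of these groups correlated at 0.998 and 0.999. On the first stimulated knockout array the neutrophil sum was 1849, against 86.8 and 117 on the others. The first XCT790 array was also less like its partners, at 0.995 and 0.996, where the other 2 correlated at 0.999. In bulk samples, fewer cells of a type and less RNA per cell cannot be told apart. The spiked-in dap control, read by its 5′ probe set, was 7.61 ± 0.250 on the 12 knockout and inhibitor arrays and 4.94 ± 0.754 on the 6 untreated WT arrays (SD), with no overlap, while its 3′ probe set was at 11.1 on both sides. This split lies along every comparison of knockout or inhibitor with untreated WT cells and cannot be told apart from them; the comparisons of stimulated with resting cells of one genotype, of the 2 inhibitors with each other, and of inhibitor with stimulated knockout cells lie within it.

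Esrra itself read 4.33, 4.30 and 4.71 in stimulated knockout cells and 5.28, 5.47 and 5.36 in stimulated WT cells, and 4.34, 4.65 and 4.65 in resting knockout cells and 5.51, 5.25 and 5.51 in resting WT cells. The knockout arrays were lower on every array, by 0.92 ± 0.11 (SE) after stimulation and 0.87 ± 0.11 at rest (limma, Benjamini-Hochberg adjusted p = 3.31e-04 and 2.16e-04), although their signal stayed above log2 4. Where these probes lie relative to the deleted part of the gene is not given in the sources used here. With XCT790 Esrra averaged 5.10 ± 0.04 and with compound A 5.11 ± 0.01 (SD, n = 3 each). Against stimulated WT cells the differences were -0.27 and -0.26 (limma, adjusted p = 0.0450 and 0.0902), with no overlap of arrays in either. Against resting WT cells they were -0.32 and -0.31 (limma, adjusted p = 0.0184 and 0.0234).

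The sequences before 3 of the start sites are shown because ERRα is the receptor removed or inhibited here. The letters of its half-site can be looked for in them, and only 1 of the 3 holds a match. They are the 250 bases before the start in the RefSeq table for GRCm38.p6, printed 5′ to 3′ along the gene, and capitals mark a match to AAGGTCA on either strand. Cpt1a (window at chr19:3323051-3323300, plus strand) is shown as the member whose level moved most on activation. Its start site in the RefSeq table lies 975 bases inside the annotated gene. Hadhb (window at chr5:30155003-30155252, plus strand) is shown because its start and that of Hadha, on the minus strand, face each other with 272 bases between them, so this stretch lies before both genes of the trifunctional protein. Acadm (window at chr3:153944644-153944893, minus strand) is shown as the only member with a match.
Cpt1a: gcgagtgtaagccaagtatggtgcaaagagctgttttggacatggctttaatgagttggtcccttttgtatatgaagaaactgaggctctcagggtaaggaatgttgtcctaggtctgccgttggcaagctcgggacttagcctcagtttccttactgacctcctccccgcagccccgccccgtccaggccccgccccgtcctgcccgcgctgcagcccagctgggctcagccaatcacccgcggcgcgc
Hadhb: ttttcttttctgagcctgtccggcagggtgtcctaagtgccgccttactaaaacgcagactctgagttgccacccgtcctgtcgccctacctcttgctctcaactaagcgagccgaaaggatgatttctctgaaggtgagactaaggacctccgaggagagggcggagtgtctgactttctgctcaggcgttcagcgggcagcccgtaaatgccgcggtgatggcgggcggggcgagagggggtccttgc
Acadm: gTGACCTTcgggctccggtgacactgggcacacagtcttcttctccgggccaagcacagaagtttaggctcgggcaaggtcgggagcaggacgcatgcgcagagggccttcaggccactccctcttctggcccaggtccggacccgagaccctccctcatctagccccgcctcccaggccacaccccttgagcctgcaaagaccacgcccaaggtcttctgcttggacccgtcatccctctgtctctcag
The capitals in the Acadm window read AAGGTCA on the opposite strand, 249 bases before the start. In windows of 250 bases before to 50 after the start, searched on both strands, AAGGTCA was found in 4.72% of 32851 windows of the table and in 1 of the 10 members. The longer letters TNAAGGTCA, which contain it, were found in 1.28% of the windows and in 0 members, and the direct repeat AGGTCANAGGTCA in 0.0396% and in 0 members. These are letter matches only.

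Of the 10 members Cpt1a had the largest difference on activation, in either genotype. In knockout cells stimulation raised 1 and lowered 3 of the 10 members past an adjusted p of 0.05, where it raised 37.7% and lowered 35.7% of all genes tested (73.4% in either direction), and the arrays of 4 members did not overlap, against 73.3% of genes. In WT cells it also raised 1 and lowered 3, against 37% and 38.4% of all genes (75.4% in either direction), and 5 members did not overlap, against 83.2%. These shares of members are below those of all genes.

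Between knockout and WT cells, 0 members passed after stimulation, against 2.18% of all genes (1.59% higher and 0.597% lower), and 2 members, Cpt1a and Acadl, passed an unadjusted p of 0.05 and were the 2 whose arrays did not overlap, against 32.8% of genes. At rest 0 passed, against 19% of all genes (6.74% higher and 12.3% lower), while Acadl passed the unadjusted threshold and 2 members, Acadl and Acadm, did not overlap, against 38.9%. For the difference between the knockout and the WT response, 0 members passed, against 0.902% of all genes (0.48% higher and 0.422% lower), and 0 passed an unadjusted p of 0.05 in the same limma fit.

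Against stimulated WT cells, XCT790 raised 1 member and lowered 5, against 29.1% and 36.9% of all genes (66% in either direction), and 7 did not overlap, against 75.7%. Compound A raised 4 and lowered 2, against 14.5% and 18.7% of all genes (33.2% in either direction), and 7 did not overlap, against 57.4%. Between XCT790 and compound A, 8 members passed and were lower with XCT790, against 24.8% of all genes higher and 27.8% lower (52.6% in either direction), and 9 did not overlap, against 63.5%. The median log2 difference of the 10 members was -0.75 between XCT790 and compound A, where that of all genes was -0.01. It was -0.41 for XCT790 against stimulated WT cells, where that of all genes was -0.06, and -0.03 for compound A, where that of all genes was also -0.03.

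Cpt1a fell steeply on activation in both genotypes. Its log2 signal was 6.17, 5.68 and 5.77 in stimulated knockout cells and 9.04, 8.70 and 8.96 in resting knockout cells. In WT cells it was 5.33, 4.15 and 4.68 after stimulation and 8.34, 8.47 and 9.05 at rest. No stimulated array came near a resting one in either genotype. The fall was 3.03 ± 0.29 (SE) in knockout cells, 8.17-fold on the linear scale, and 3.90 ± 0.29 in WT cells, 14.9-fold (limma, adjusted p = 2.65e-07 and 1.53e-08). In WT cells 104 of the 6873 genes fell further.

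Stimulated knockout cells kept Cpt1a above every stimulated WT array, the difference being 1.15 (95% interval 0.53 to 1.77; limma, adjusted p = 0.0562). It passed with the replicate number as a block (adjusted p = 0.0314), with a trended and robust prior (0.0427), with values floored at log2 4 (0.0499) and without the first stimulated WT array (1.46, 0.0161); over the arrays left out in turn it ranged from 0.86 to 1.46. At rest the knockout and WT arrays overlapped, and the difference was 0.28 (-0.34 to 0.90, adjusted p = 0.500). The fall on activation was 0.87 smaller in knockout than in WT cells, with an interval of -0.0039 to 1.74 and an adjusted p of 0.289.

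Both inhibitors left Cpt1a between the stimulated and the resting level. It was 6.57, 6.68 and 6.83 with XCT790 and 7.73, 6.89 and 6.82 with compound A, above all stimulated and below all resting arrays. Against stimulated WT cells it rose by 1.97 ± 0.29 with XCT790, 3.92-fold, and by 2.43 ± 0.29 with compound A, 5.37-fold (limma, adjusted p = 3.01e-05 and 4.40e-05); with compound A only 9 of the 6873 genes rose further. Against resting WT cells it was lower by 1.93 with XCT790 and by 1.47 with compound A (adjusted p = 2.87e-05 and 3.61e-04). The 2 inhibitors differed by -0.45, XCT790 minus compound A, with an interval of -1.07 to 0.16 (adjusted p = 0.206).

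Against stimulated knockout cells, on the same side of the dap split, Cpt1a was higher by 1.28 ± 0.29 with compound A (adjusted p = 0.0057) and by 0.82 ± 0.29 with XCT790 (0.0214). The second of these calls was lost without XCT790 array 3 (adjusted p = 0.0648), without stimulated knockout array 2 or 3 (0.0720 and 0.0590), and with no filter on low signals (0.0535). From the highest level down, the groups stood as resting knockout, resting WT, compound A, XCT790, stimulated knockout and stimulated WT. Of the 5 neighbouring pairs, resting knockout and resting WT, compound A and XCT790, and stimulated knockout and stimulated WT did not pass the test.

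The second probe set of Cpt1a carries a suffix that marks probes that may also bind other transcripts. It showed the fall on activation and lower levels with both inhibitors than in resting WT cells. It did not pass the test for either inhibitor against stimulated WT or stimulated knockout cells. It read 5.62, 4.99 and 5.21 in stimulated knockout cells and 6.75, 6.82 and 7.30 in resting knockout cells, and 5.41, 4.96 and 5.34 in stimulated WT cells and 6.80, 7.69 and 7.73 in resting WT cells. On it the fall was 1.69 in knockout and 2.17 in WT cells (adjusted p = 1.10e-05 and 7.02e-07), and the stimulated knockout and WT arrays differed by 0.04 (adjusted p = 0.970). With XCT790 it read 5.70, 5.66 and 5.63 and with compound A 5.87, 5.65 and 5.66, above each stimulated WT array, but the differences of 0.43 and 0.49 had adjusted p-values of 0.117 each. Against stimulated knockout cells the differences of 0.39 with XCT790 and 0.46 with compound A did not pass either (adjusted p = 0.150 and 0.160). Against resting WT cells the second probe set was lower by 1.74 with XCT790 and by 1.68 with compound A (limma, adjusted p = 8.06e-06 and 1.35e-05). At rest its knockout minus WT difference was -0.45 (adjusted p = 0.179), where the main probe set gave 0.28. A further probe set lay under log2 4 on all 18 arrays.

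**Figure D1:**
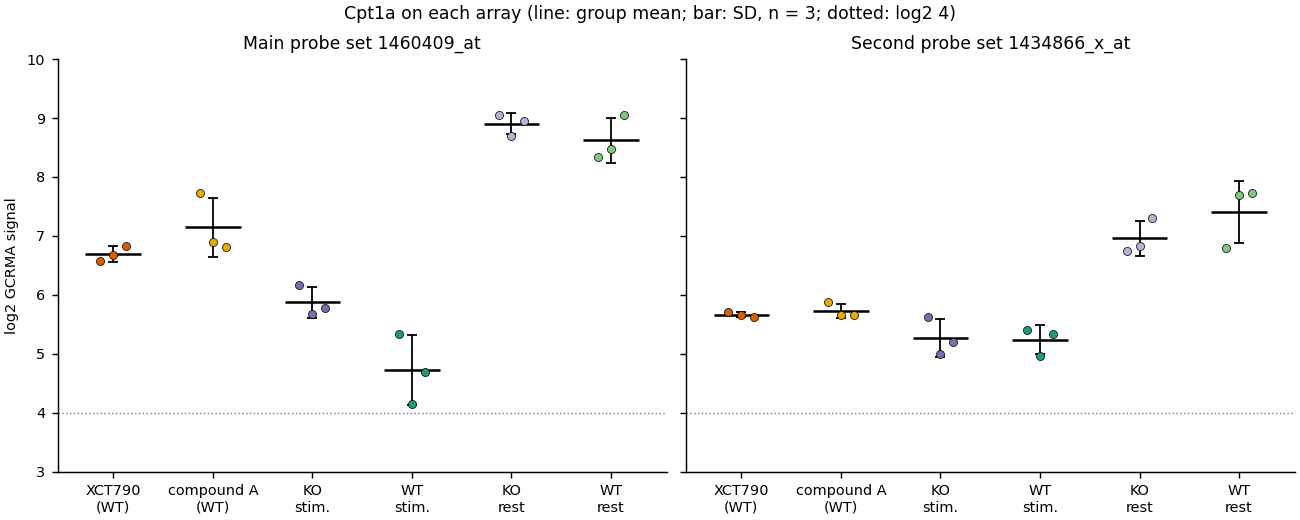
Log2 GCRMA signal of Cpt1a on each array (vertical axis) by group, for the main probe set on the left and the second probe set on the right; points are arrays, lines are group means and bars are SDs of 3 arrays, and the dotted line marks log2 4. On both probe sets the resting arrays lie above all others, and on the main one the XCT790 and compound A arrays, at 6.57 to 7.73, lie clear of stimulated WT arrays at 4.15 to 5.33.

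Cpt2, the inner membrane partner of Cpt1a, lay close to the detection floor, at or above log2 4 on 14 of 18 arrays. It read 2.67, 3.53 and 3.50 with XCT790, under the floor on all 3 arrays, against 3.90 to 4.93 on the 15 other arrays. The XCT790 arrays were below every other array. Against stimulated WT cells this was a fall of at least 1.22-fold (limma on the unfloored values, adjusted p = 6.23e-04), and with values floored at log2 4 it did not pass (adjusted p = 0.108). The stimulated minus resting difference was -0.32 in knockout cells and 0.07 in WT cells, and neither passed (adjusted p = 0.199 and 0.777). The second Cpt2 probe set was under log2 4 on all arrays.

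The very long and long chain acyl-CoA dehydrogenases rose with compound A, and the medium chain enzyme fell with XCT790. Acadvl, which acts on very long chains at the inner membrane, was 10.18, 10.38 and 10.41 with compound A and between 9.26 and 9.83 on all 15 other arrays. The compound A arrays were above every other array. Against stimulated WT cells Acadvl rose by 0.57 ± 0.11 with compound A (1.49-fold, adjusted p = 0.00149), and against resting WT cells by 0.61 (adjusted p = 1.85e-04). With XCT790 it differed from stimulated WT cells by -0.24 (-0.47 to -0.00068, adjusted p = 0.0719), and XCT790 and compound A differed by -0.81 ± 0.11 (adjusted p = 3.11e-05).

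Acadl, the long chain enzyme, was 10.21, 9.66 and 9.66 in stimulated knockout cells and 10.48, 10.30 and 10.28 in resting knockout cells. In WT cells it was 9.58, 9.29 and 9.45 after stimulation and 10.14, 9.94 and 10.01 at rest. Stimulated arrays were below resting arrays in both genotypes. The falls were 0.51 ± 0.14 in knockout and 0.59 ± 0.14 in WT cells (1.42-fold and 1.51-fold, adjusted p = 0.00356 and 0.00115). With compound A, Acadl read 10.24, 10.26 and 10.36, above all WT arrays, stimulated or resting. It rose by 0.85 ± 0.14 against stimulated WT cells (1.80-fold, adjusted p = 3.91e-04), and differed from resting WT cells by 0.26 (-0.03 to 0.55, adjusted p = 0.104). With XCT790 it read 9.70, 9.55 and 9.36, which overlapped the stimulated WT arrays (difference 0.10, adjusted p = 0.551) and lay 0.75 ± 0.14 under compound A (adjusted p = 3.33e-04).

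The knockout minus WT differences of Acadl were 0.41 ± 0.14 after stimulation (adjusted p = 0.157) and 0.33 ± 0.14 at rest (adjusted p = 0.101), with no overlap of arrays in either. With the replicate number as a block, the resting difference passed (adjusted p = 0.0423). The difference after stimulation fell to 0.23 without the first stimulated knockout array, which stood apart and read 10.21 (adjusted p = 0.499), and that at rest to 0.26 without the first resting knockout array (adjusted p = 0.291). Compound A arrays were higher than stimulated knockout arrays by 0.44 (adjusted p = 0.0282), a call that 4 of 6 left-out arrays ended, namely array 2 or 3 of either group (0.0682, 0.0939, 0.110 and 0.109). The XCT790 arrays differed from the stimulated knockout arrays by -0.31 (adjusted p = 0.0573, and 0.0193 with the block).

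Acadm, the medium chain enzyme, was 9.56, 10.23 and 9.98 with XCT790, 10.35, 10.26 and 10.31 with compound A, and 10.49, 10.49 and 10.53 in stimulated WT cells. All XCT790 arrays were below all arrays of the other two. It fell by 0.58 ± 0.12 with XCT790 against stimulated WT cells (1.49-fold, adjusted p = 8.75e-04) and differed by -0.20 with compound A (-0.46 to 0.07, adjusted p = 0.245). The XCT790 minus compound A difference of -0.38 passed (adjusted p = 0.0189), but not in a fit of these groups alone (0.124), nor without the first XCT790 array (-0.20, 0.0887) or the first compound A array (0.0546). On activation Acadm did not pass in either genotype, with differences of 0.17 in knockout and 0.03 in WT cells (adjusted p = 0.238 and 0.819).

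Hadha and Hadhb encode the alpha and beta subunits of the trifunctional protein, and their start sites share the stretch printed above for Hadhb. On activation Hadhb fell and Hadha did not pass the test, and with XCT790 Hadha fell and Hadhb did not pass it. Hadhb read 9.93, 10.13 and 10.25 in stimulated knockout cells and 10.59, 10.93 and 10.86 in resting knockout cells. In WT cells it read 10.05, 10.07 and 10.07 after stimulation and 10.85, 10.86 and 10.92 at rest. Stimulated arrays lay below resting arrays throughout, by 0.69 ± 0.09 in knockout and 0.81 ± 0.09 in WT cells (1.61-fold and 1.75-fold, adjusted p = 1.11e-05 and 1.70e-06). Hadha differed by 0.17 in knockout and 0.16 in WT cells, and its arrays overlapped in both genotypes (adjusted p = 0.128 and 0.163).

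With XCT790, Hadha read 8.67, 8.87 and 8.68, against 9.87, 9.68 and 9.74 in stimulated WT cells and no less than 9.28 on any array without XCT790. It fell by 1.02 ± 0.10 (2.03-fold, adjusted p = 6.01e-07). Hadhb with XCT790 read 10.07, 9.94 and 9.85, overlapping stimulated WT cells at a difference of -0.12 (-0.32 to 0.09, adjusted p = 0.297). With compound A, Hadha was 9.56, 9.37 and 9.52, a fall of 0.28 ± 0.10 (adjusted p = 0.0444), and Hadhb 10.45, 10.39 and 10.39, a rise of 0.34 ± 0.09 (adjusted p = 0.0119). The Hadha call ended with no filter on low signals (0.0693) and without any one of the 3 stimulated WT arrays or compound A array 2 or 3 (0.0528 to 0.167). The Hadhb rise was not found on its second probe set, at 0.09 (adjusted p = 0.534). On that probe set the XCT790 minus compound A difference was -0.22 (adjusted p = 0.0753), where the main one gave -0.46 (adjusted p = 8.62e-04). The falls on activation were found on it, at 0.69 in knockout and 0.51 in WT cells (adjusted p = 1.93e-05 and 2.73e-04). It carries the same suffix as the second Cpt1a probe set, for probes that may also bind other transcripts.

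Taking Hadha minus Hadhb on each array, a comparison chosen after these values were seen, cancels what the 2 share on an array. This difference was -0.38, -0.53 and -0.49 in stimulated knockout cells and -0.94, -1.47 and -1.58 in resting knockout cells, and -0.18, -0.40 and -0.33 in stimulated WT cells and -1.16, -1.30 and -1.36 in resting WT cells. With XCT790 it was -1.40, -1.07 and -1.17 and with compound A -0.89, -1.02 and -0.87. The stimulated arrays were above the resting ones in both genotypes, and the inhibitor arrays below the stimulated ones. The shifts were 0.86 and 0.97 on activation in knockout and WT cells, -0.91 with XCT790 and -0.62 with compound A, each with a two-sided exact permutation p of 0.1, the smallest that 3 arrays against 3 allow. With the second Hadhb probe set the same shifts were 0.86, 0.67, -0.89 and -0.37.

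**Figure D2:**
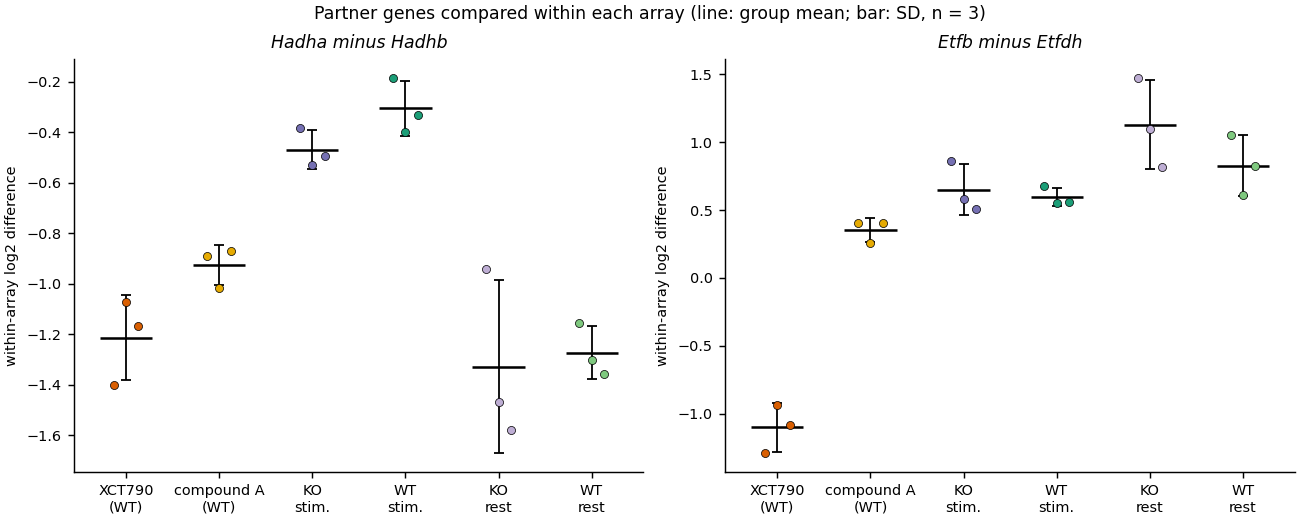
Within-array log2 differences (vertical axes) of Hadha minus Hadhb on the left and Etfb minus Etfdh on the right, by group; points are arrays, lines are means and bars are SDs of 3 arrays. Hadha minus Hadhb was highest in stimulated cells, and Etfb minus Etfdh was below 0 on the XCT790 arrays alone.

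Eci1, the isomerase that unsaturated fatty acids need, was the member that fell furthest with XCT790. It read 6.62, 7.38 and 7.14 with XCT790, 8.74, 8.56 and 8.61 with compound A, and 9.44, 9.40 and 9.34 in stimulated WT cells. The 3 groups did not overlap. Against stimulated WT cells it fell by 2.34 ± 0.15 with XCT790 (5.08-fold, adjusted p = 1.18e-08) and by 0.75 ± 0.15 with compound A (1.69-fold, adjusted p = 0.00161), and the inhibitors differed by -1.59 ± 0.15 (adjusted p = 1.07e-06). On the same side of the dap split, against 9.08, 9.36 and 9.38 in stimulated knockout cells, the falls were 2.23 and 0.64 (adjusted p = 2.41e-08 and 0.0064). In knockout cells the stimulated minus resting difference was 0.28 and in WT cells 0.31 (adjusted p = 0.0964 and 0.0679); without the first stimulated knockout array the knockout difference passed (0.0442), and in a fit of the WT groups alone the WT difference passed (0.00298).

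Etfb and Etfdh form the route by which electrons leave the acyl-CoA dehydrogenases: Etfb is a subunit of the electron transfer flavoprotein, and Etfdh the membrane oxidoreductase that it reduces. Etfb was 7.63, 8.08 and 7.80 with XCT790 and between 9.30 and 10.27 on the 15 other arrays, 9.54, 9.37 and 9.44 of these with compound A. The XCT790 arrays were well below all others. It fell by 1.80 ± 0.18 against stimulated WT cells (3.47-fold, adjusted p = 7.00e-07), by 1.75 against stimulated knockout cells (adjusted p = 9.97e-07) and by 1.61 against compound A (adjusted p = 4.87e-06), while compound A differed from stimulated WT cells by -0.18 (-0.56 to 0.20, adjusted p = 0.472). The highest Etfb value, 10.27, was on the first resting knockout array, the one that stood apart; the knockout minus WT difference at rest was 0.28 with it and 0.03 without it (adjusted p = 0.269 and 0.916).

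Etfdh passed the threshold on activation in both genotypes, higher after stimulation. It read 8.87, 9.004 and 8.94 in stimulated knockout cells and 8.79, 8.47 and 8.66 in resting knockout cells, and 9.10, 9.04 and 8.97 in stimulated WT cells and 8.61, 8.69 and 8.67 in resting WT cells. The groups did not overlap in either genotype, and the rises were 0.30 ± 0.08 and 0.38 ± 0.08 (1.23-fold and 1.30-fold, adjusted p = 0.00299 and 4.56e-04). With XCT790 it read 8.92, 9.02 and 8.89 and with compound A 9.13, 9.12 and 9.04. These overlapped stimulated WT cells, and the XCT790 minus compound A difference was -0.15 (-0.32 to 0.01, adjusted p = 0.113). Etfb minus Etfdh within arrays, also chosen after the values were seen, was -1.29, -0.93 and -1.08 with XCT790 and 0.68, 0.55 and 0.56 in stimulated WT cells, a shift of -1.70 (two-sided exact permutation p = 0.1). Etfa, the other subunit of the flavoprotein and named here after its values were seen, fell by 0.58 with XCT790, to 10.51 ± 0.22 against 11.09 ± 0.05 in stimulated WT cells (SD, n = 3 each).

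**Figure D3:**
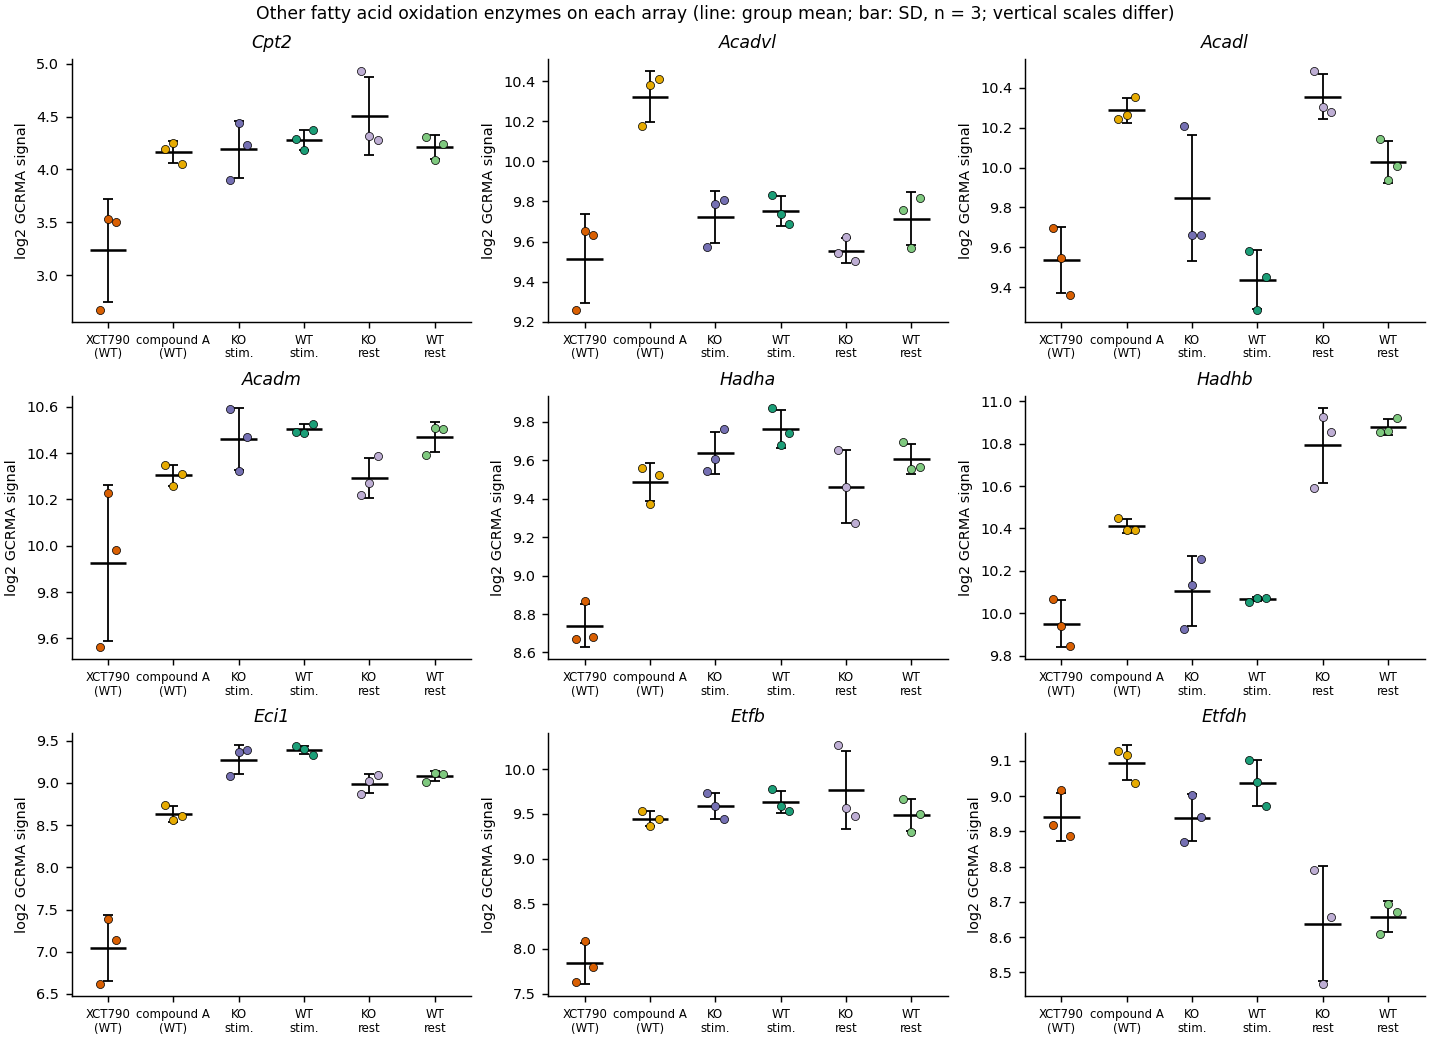
Log2 GCRMA signal (vertical axes, scales differ between panels) of the 9 members other than Cpt1a on each array, by group; points are arrays, lines are means and bars are SDs of 3 arrays. XCT790 arrays are lowest for Cpt2, Hadha, Eci1 and Etfb, compound A arrays are highest for Acadvl, and Hadhb and Acadl are lower in stimulated than in resting cells.

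The 95% interval of the difference between the knockout and the WT response to activation contained 0 for all 10 members. These intervals ran from -0.29 to 0.32 for Hadha and from -0.0039 to 1.74 for Cpt1a, so that a smaller response of Cpt1a in knockout cells of up to 1.74 on the log2 scale lay within its error.

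**Figure D4:**
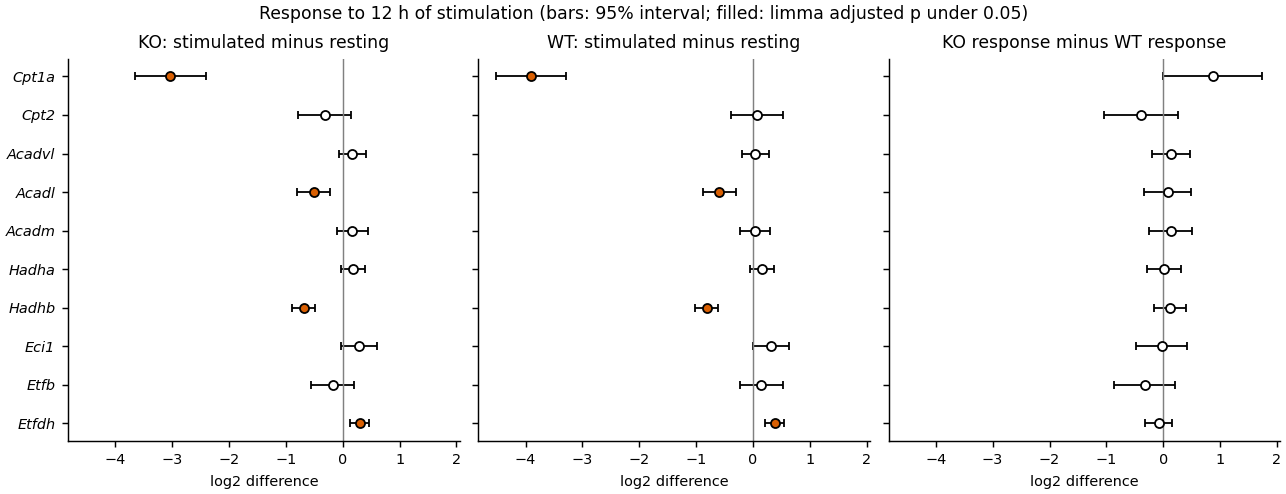
Log2 differences (horizontal axes) of the 10 members for stimulated minus resting knockout cells, stimulated minus resting WT cells, and the difference between these responses; bars are 95% intervals from the limma fit and filled points passed an adjusted p of 0.05. Cpt1a fell by 3.03 in knockout and 3.90 in WT cells, and no member passed for the difference between the responses.

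The inhibitors at 20 µM each divided the members. Cpt1a was higher with both and Eci1 and Hadha lower with both. Acadvl, Acadl and Hadhb were higher with compound A and did not pass with XCT790, and Cpt2, Acadm and Etfb were lower with XCT790 and did not pass with compound A. In each of these last 6 the difference between the inhibitors itself passed, but that of Cpt2 rests on XCT790 values under log2 4 and did not pass with values floored there (adjusted p = 0.380). The rises of Cpt1a with both inhibitors and of Hadhb with compound A did not pass on their second probe sets. Nor did the Hadhb difference between the inhibitors. The Hadha call with compound A and the Acadm difference between the inhibitors were lost when certain single arrays were left out. Against stimulated knockout cells, 1 member was higher and 5 lower with XCT790, against 31.3% and 33.9% of all genes (65.2% in either direction), and 6 did not overlap, against 70.2%. With compound A 4 were higher and 1 lower, against 14.1% and 12% of all genes (26.1% in either direction), and 6 did not overlap, against 48%. Hadhb, one of those 5, was 0.31 higher (adjusted p = 0.0273), a call ended by leaving out the first or second stimulated knockout array or any one of the 3 compound A arrays (0.0541 to 0.121). On its second probe set this difference was 0.29 (limma, adjusted p = 0.0453). Against resting WT cells, 1 member was higher and 8 lower with XCT790, against 33.6% and 38.3% of all genes (71.9% in either direction), and 9 did not overlap, against 76.5%. With compound A 2 were higher and 3 lower, against 32.6% and 37.1% of all genes (69.7% in either direction), and 7 did not overlap, against 78.1%.

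**Figure D5:**
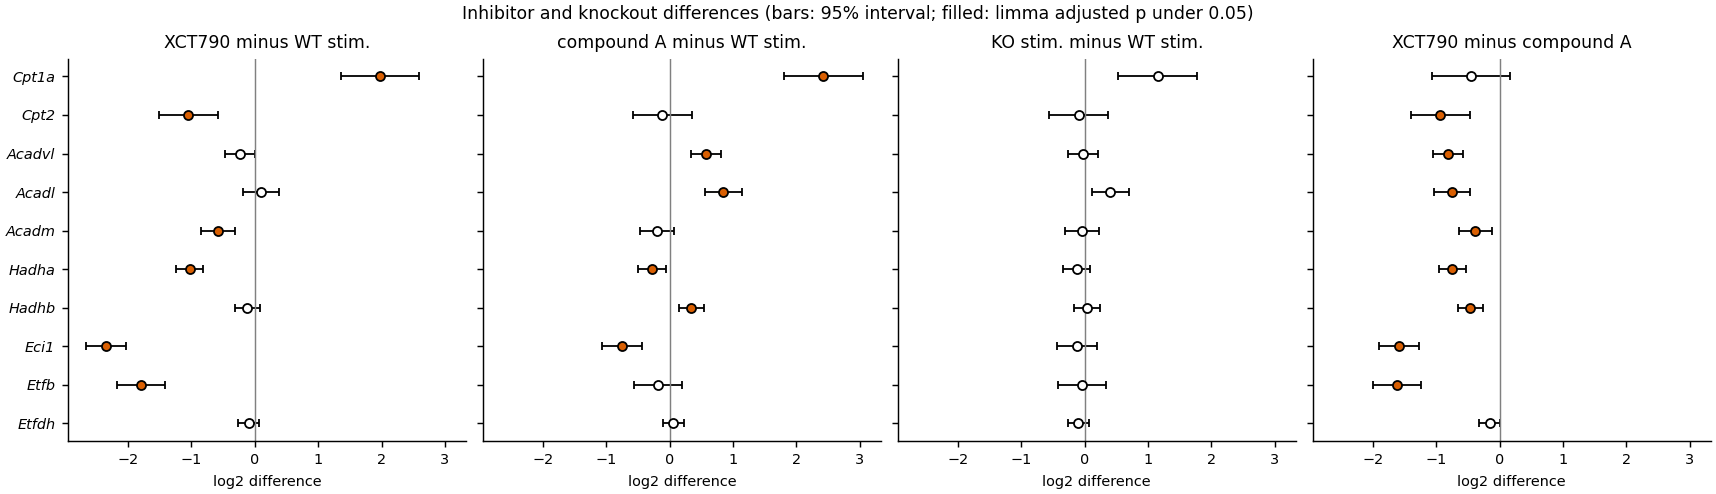
Log2 differences (horizontal axes) of the 10 members for XCT790, compound A and knockout, each minus WT in stimulated cells, and for XCT790 minus compound A; bars are 95% intervals from the limma fit and filled points passed an adjusted p of 0.05. Cpt1a is to the right of 0 in the first 3 panels, Eci1 and Etfb lie furthest to the left with XCT790, and all 10 points are left of 0 in the last panel.

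Other genes of lipid metabolism and its regulation, 94 listed of which 57 were tested, moved in both directions on activation. In knockout cells 14 rose and 26 fell, where 37.7% of all genes rose and 35.7% fell, and in WT cells 13 rose and 24 fell, where 37% rose and 38.4% fell. The counts of the smaller lists stand against these same shares of all genes. Of 14 other genes listed under mitochondrial beta-oxidation, 3 rose and 5 fell in knockout cells. In WT cells 5 rose and 5 fell, with medians of 0.08 in knockout and 0.11 in WT cells. This list also holds genes of other pathways, such as Ivd. Acaa2, the thiolase of the last step, fell by 1.86 in knockout and 1.74 in WT cells. In WT cells Ivd, which acts on a leucine intermediate, fell by 1.30, and Acad9, which also serves complex I assembly, rose by 1.25. Of 3 carnitine genes tested, 2 fell in each genotype: Crot, which makes carnitine esters in peroxisomes, by 1.59 and 1.61, and the carnitine carrier Slc22a5, by 0.90 in WT cells. Of 7 peroxisomal genes 4 passed in each genotype, all lower, among them Ehhadh, whose stimulated means lay under log2 4 and which was at least 2.84-fold lower in knockout cells. Of 7 genes of fatty acid synthesis tested, Fasn, the fatty acid synthase, rose by 1.24 in WT cells, and Scd1, the desaturase, was 11.3-fold lower there with values floored at log2 4, under which 1 of its 3 stimulated arrays lay. Elovl5, of the same list, fell by 1.44 in WT cells. Among lipases and binding proteins Fabp5 rose by 2.88 and Lipa fell by 2.83 in WT cells.

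With XCT790, 15 of the 57 rose and 27 fell against stimulated WT cells, where 29.1% of all genes rose and 36.9% fell, with a median of -0.44, where that of all genes was -0.06. With compound A, 5 rose and 6 fell, where 14.5% of all genes rose and 18.7% fell, with a median of 0.03. Of the 14 other genes listed under mitochondrial beta-oxidation, 2 rose and 9 fell with XCT790, and 1 passed, higher, with compound A. Hadh, the short chain hydroxyacyl-CoA dehydrogenase, fell by 2.13 with XCT790 against stimulated WT cells and by 1.85 against compound A (limma, adjusted p = 2.37e-07 and 2.23e-06). All 3 ketone body genes tested fell with XCT790, Oxct1, which activates acetoacetate for use as fuel, by 1.69. Slc22a5 rose by 0.71 and Slc27a4, a fatty acid transporter, by 1.07. Between knockout and WT cells, 1 of the 57, Esrra itself, passed after stimulation, lower in the knockout, against 2.18% of all genes. At rest 2 were higher and 7 lower, against 6.74% and 12.3% of all genes. The lower ones included Esrra itself by 0.87, Slc22a5 by 0.43, Slc27a4 by 0.89 and Scd1 by 1.83, while Acad9 was higher by 0.52.

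Of the regulators named with the members, Ppara, Ppard, Pparg and Ppargc1a were under log2 4 on all 18 arrays. Ppargc1b, a coactivator of ERRα, was measured at 5.21, 6.79 and 6.29 with XCT790, against 7.20, 7.47 and 7.14 in stimulated WT cells. All XCT790 arrays were lower, by 1.17 ± 0.28 (SE; adjusted p = 0.00182), and with compound A the difference was -0.04 (adjusted p = 0.951).

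Among all genes tested, those whose main probe set was most like Cpt1a over the 18 arrays were Itm2b (Pearson r = 0.957), Ms4a4b (0.953), Srpk2 (0.949), Atxn7l1 (0.943) and Tram1 (0.942), and those most opposed were Mllt1 (-0.964), Tsr2 (-0.960) and Sgta (-0.958). The 18 points share 6 groups and one normalization, and the values are a description. Over the same arrays Cpt1a ran with Hadhb (0.817) and Acadl (0.728) and against Etfdh (-0.704), and Eci1 ran with Hadha (0.942) and Etfb (0.912). After subtraction of the group means these 5 values were -0.204, 0.315, 0.272, 0.248 and 0.0746.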

How the data were processed

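The authors deposited one table of log2 signals for 18 Affymetrix Mouse 430A 2.0 arrays, made with GCRMA per the submitters' processing notes. The sorted values are the same on every array, as after quantile normalization, and the scanner files were not used here. Of 22690 probe sets, 20380 had 1 gene in GEO's platform annotation, 691 several, 1555 none and 64 were controls; symbols were updated through their Entrez identifiers. A single model with 1 mean per group over all 18 arrays was fitted with limma 3.58.1 in R 4.3.3 (12 residual degrees of freedom), with Benjamini-Hochberg adjustment over the 6873 genes tested and a threshold of 0.05. Arrays have no read depth; their number, 3 per group, limits the precision. The limma fit, and no other step, was tested on simulated data, in which the noise was independent between arrays. Members, lists and comparisons were chosen with earlier results of these data known. The genes named beside the members come from the largest changes of each list by a written rule, with exceptions marked in the text. Not every gene that the rule gave is named. Among those left out are Myc, Klf2 and Foxo1 on activation and Pex5 with XCT790.

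Replicate numbers come from the titles. Deviations of equally numbered arrays correlated above 0.1 in all 3 pairs for stimulated against resting knockout cells (0.238 to 0.336), knockout against WT cells at rest (0.254 to 0.645) and after stimulation (0.148 to 0.442), and either inhibitor against stimulated WT (0.150 to 0.474) or stimulated knockout cells (0.147 to 0.394). Alternatives included the replicate block, other probe sets, no filter, a floor, other variance models, array weights and leaving out each array.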

Additional observations from a re-analysis of the deposited data

How the results depend on the processing

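Of 1860 values of single members under other settings, 1781 kept their side of the threshold, 39 newly passed, 39 no longer passed and 1 reversed. The reversed value was Etfdh for XCT790 against stimulated knockout cells, at -0.0883 with array weights, a fit that did not converge fully. Direction was compared only where a value passed in at least 1 of the 2 fits, and values that passed in neither could change sign. The resting knockout minus WT difference of Cpt1a, for example, was 0.28 on the main probe set and -0.45 on the second. The number of members past the threshold moved by over 1.5 times in these cases. With the replicate block, 1 member passed for knockout against WT at rest and 1 after stimulation, where the fit without it gave 0; it changed the call of Acadl for XCT790 against stimulated knockout cells, and of Acadl for compound A against resting WT cells (adjusted p = 0.0427), whose numbers do not pair, and no other. With array weights, 3 members passed for knockout against WT at rest, 2 after stimulation, 1 for the difference between responses, 7 for stimulated against resting knockout cells and 10 for XCT790 against stimulated knockout cells; for these last 2 comparisons the same fit called 5673 and 5692 of the 6873 genes, where the fit without weights called 5042 and 4482. A trended and robust prior and a floor at log2 4 each gave 1 for knockout against WT after stimulation, and a fit of the compared groups alone gave 3 for compound A against stimulated knockout cells; the cause was not tested. Over all genes, the knockout against WT count at rest was 1308, 176 in a fit of the compared groups alone, 2379 with array weights and 608 to 1458 with an array left out. After stimulation it was 150, 253 with the mean of probe sets, 1639 with array weights and 65 to 135 with an array left out. For the difference between responses it was 62, 39 with a floor of log2 6, 123 with the replicate block, 38 with the compared groups alone, 1222 with array weights and 20 to 101 with an array left out. Array weights gave 4048 for compound A against stimulated WT cells, where the count was 2283, and 3957 against stimulated knockout cells, where it was 1792 and 1102 and 1124 without compound A array 2 and without array 3; with no filter 8197 of 12393 genes passed for stimulated against resting knockout cells, where it was 5042 of 6873.

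Leaving out each array in turn gave 4 members for stimulated against resting WT cells and 4 to 5 in knockout cells, 0 for knockout against WT at rest and 0 to 1 after stimulation, 0 for the difference between responses, 6 to 7 for XCT790 and 5 to 6 for compound A against stimulated WT cells, and 7 to 8 between the inhibitors. Against stimulated knockout cells it gave 5 to 7 with XCT790 and 3 to 4 with compound A, and against resting WT cells 9 and 4 to 5. Rescaling the arrays shifted the median of all genes by -0.046 to 0.014. Signals near log2 4, those of Cpt2 and of Cpt1a in stimulated WT cells, limit what can be said of their folds.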
